A study of Mus musculus with 6 samples.

Results

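The genes described here are 49 genes of the Wnt pathway, chosen by name for their role: ligands, Frizzled receptors, co-receptors, the R-spondin axis, secreted antagonists, and intracellular and feedback genes. The class named secreted antagonists also holds the membrane-bound inhibitor Apcdd1. The set was chosen with earlier results of these data known, so its counts beside the shares over all genes are a description only. Of the 15159 genes with a row in the deposited count table, 42 belong to this set, and 41 of these had enough reads to be tested. Wnt2, Wnt6, Wnt9b, Rspo1, Rnf43, Sfrp5 and Dkk1 had no row, and Notum had a row with between 0 and 13 reads in a library, too few for the test.

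Wnt proteins are secreted lipid-modified ligands that bind Frizzled receptors together with the co-receptors LRP5 and LRP6, which stabilises beta-catenin and lets it act with LEF/TCF factors in the nucleus. Other Wnt signals run through ROR and RYK receptors without beta-catenin. Secreted antagonists hold the pathway in check, either by binding Wnt proteins (the SFRP family, FRZB, WIF1) or by blocking the co-receptors (DKK1 and DKK2), and several inhibitors are themselves induced by the pathway as feedback. In the heart the pathway is known for its stage-dependent roles in cardiac specification, growth and matrix remodelling.

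The cells were embryonic cardiac cells of C57BL/6 x 129S4/SvJae mice at embryonic day 18.5, and their polyadenylated RNA was sequenced. Culture lasted 4 days on PDMS, a silicone, at a stiffness of 13 kPa, and every group was given doxycycline at 2 µg/ml on the first 3 days. In the H3WT group (3 libraries) doxycycline induced wild-type histone H3.3, and in the H3K9M group (3 libraries) it induced H3.3 with methionine in place of lysine 9, a mutant known to inhibit methylation at that lysine. Both groups therefore carried an induced H3.3 transgene, and neither the promoter that drives it nor the share of cells that expressed it is stated in the labels. One culture protocol is given for all 6 libraries, but the sample titles carry tags whose meaning is not stated. In both groups the titles of replicate 2 lack the word Soft and those of replicate 1 lack D4, and the M number in the title is shared between the groups for replicates 1 and 3 but not for replicate 2. Whether replicate libraries stem from different animals is not stated, so the p-values reflect only how far these libraries scatter, which may be technical.

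The libraries held 55550379 to 67994773 counts. Levels are CPM, counts scaled to TMM-normalised library size, and differences were tested with edgeR's quasi-likelihood test with Benjamini-Hochberg adjustment over all 14758 genes tested, at an adjusted p under 0.05. Markers of cardiomyocytes were abundant, with 12 of 12 detected at a summed 30477 to 37480 CPM in H3WT and 32154 to 35973 CPM in H3K9M. Fibroblast markers came next (11 of 11 detected, 16576 to 22582 and 15765 to 22078 CPM), so the cultures were mixtures, and in such bulk RNA fewer cells of a type and less RNA per cell cannot be told apart. The summed level of 11 endothelial markers was 251 to 332 CPM in H3WT and 148 to 222 CPM in H3K9M. That of 10 macrophage markers ran from 160 to 573 CPM in H3WT, and from 226 to 296 CPM in H3K9M, and the maximum was that of H3WT replicate 1.

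Setting H3K9M against H3WT asks which Wnt pathway transcripts differ when heart cells carry the mutant rather than the wild-type histone. Of the 41 tested members, 4 were lower in H3K9M and none was higher. The secreted antagonist Sfrp2 fell 5.07-fold, and the receptors Fzd4, Fzd3 and Fzd1 fell 1.94-fold, 1.64-fold and 1.56-fold. Across all tested genes 1.05% were called lower and 0.935% higher. With only replicates 1 and 3 of both groups, whose titles hold the word Soft, edgeR called none of the members and no gene at all in either direction. In that fit 13 members were lower and 0 higher at an unadjusted p under 0.05, and DESeq2 called 5 lower and 0 higher. Of all 14786 genes tested there, 772 were lower and 606 higher at that p, and DESeq2 called 191 lower and 155 higher. The median log2 fold change was -0.27 over the 41 members and -0.0024 over all tested genes.

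Counts by other criteria, which again include members called above, also leaned to lower values in H3K9M. At an unadjusted p under 0.05, edgeR gave 15 members lower and 1 higher, where the shares over all genes were 8.61% and 7.78%. In 16 members every H3K9M library was below every H3WT library and in 2 every H3K9M library was above, against 11.3% of all genes in either direction. Fold changes were negative in 33 of 41 members and in 50.5% of all genes. With RLE in place of TMM factors 32 of 41 were negative. DESeq2 called 13 members lower and 0 higher, where it called 3.69% of all genes lower and 3.22% higher. Beside the 4 these were Fzd7, Fzd8, Sfrp1, Frzb, Wif1, Apcdd1, Nkd2, Tcf7 and Rspo2. Limma-voom called 3 lower and 0 higher, against 0.759% and 0.745% of all genes. At an edgeR adjusted p under 0.1 the counts were 10 lower and 0 higher, against 2.41% and 2.09%.

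**Figure D1:**
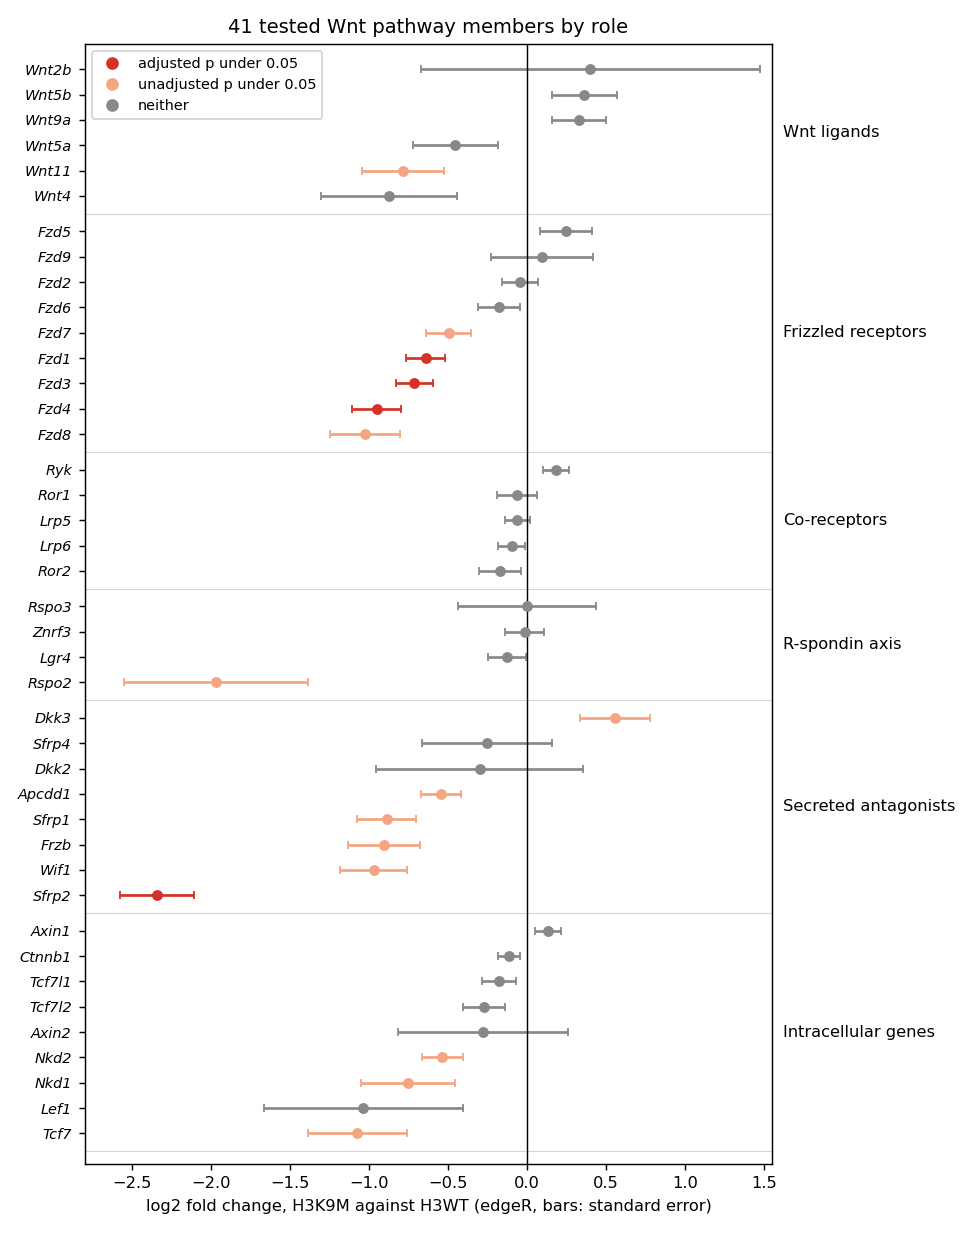
Log2 fold change (x axis, H3K9M against H3WT, edgeR, bars showing the standard error) of the 41 tested members, grouped by role. The 4 members in red passed the adjusted threshold, all to the left of 0, and those in orange had an unadjusted p under 0.05.

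The stretches just before the transcription start of 3 of the 4 members that fell are shown because these genes moved in 1 direction. They are the 250 bases upstream of the RefSeq start on GRCm38.p6, read 5′ to 3′ on the gene's strand, with capitals at matches, on either strand, to the LEF/TCF core CTTTGA or the GC box GGGCGG. RefSeq promoter entries matched 33 of the 49 members. The Sfrp2 window is chr3:83766071-83766320 on the plus strand, the Fzd4 window chr7:89404116-89404365 on the plus strand, and the Fzd1 window chr5:4758217-4758466 on the minus strand.
Sfrp2: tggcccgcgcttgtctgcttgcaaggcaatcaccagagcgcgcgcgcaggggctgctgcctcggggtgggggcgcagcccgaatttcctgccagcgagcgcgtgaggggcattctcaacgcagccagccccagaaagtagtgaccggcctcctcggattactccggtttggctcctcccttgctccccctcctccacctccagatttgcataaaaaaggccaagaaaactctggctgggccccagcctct
Fzd4: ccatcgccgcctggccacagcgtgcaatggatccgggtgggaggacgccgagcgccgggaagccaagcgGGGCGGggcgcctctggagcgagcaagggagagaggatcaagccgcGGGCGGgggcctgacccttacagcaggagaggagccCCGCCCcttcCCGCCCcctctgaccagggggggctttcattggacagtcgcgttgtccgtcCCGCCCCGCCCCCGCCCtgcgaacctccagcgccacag
Fzd1: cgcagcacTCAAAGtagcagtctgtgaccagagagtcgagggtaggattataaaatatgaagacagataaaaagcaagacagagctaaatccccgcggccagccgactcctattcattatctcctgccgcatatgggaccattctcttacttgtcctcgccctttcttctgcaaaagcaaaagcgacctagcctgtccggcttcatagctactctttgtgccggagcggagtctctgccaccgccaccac

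The 3 windows shared neither motif. Fzd4 held 7 GC boxes, 2 of them sharing 1 base, Fzd1 held 1 LEF/TCF core at 242 bases before its start, and Sfrp2 held neither motif in these letters. Over all 32851 windows of this length, 32.7% held a GC box and 13.8% a LEF/TCF core. All 3 were richer in CG dinucleotides than the median window, with 25 in Fzd4, 16 in Sfrp2 and 12 in Fzd1 against a median of 6. This was not particular to the members that fell. Windows of the other matched members ran from 2 (Rnf43) to 48 (Wnt9a), with 33 in Ryk. Among the 33 matched members, which had 43 windows, 25 had a window with a GC box and 7 had a window with a LEF/TCF core. These count members with a match in any of their windows, so they are not on the per-window scale of the shares above. These matches describe the letters only and do not show binding.

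Among the secreted antagonists, counted with the membrane-bound Apcdd1, 1 of 8 tested members fell and none rose, against 1.05% and 0.935% of all genes. Their median log2 fold change was -0.72. Sfrp2, a secreted Frizzled-related protein that binds Wnt ligands, lies on chromosome 3 at 83766321 to 83774316 (GRCm38, GENCODE M21). It stood at 171, 90.5 and 94.3 CPM in the 3 H3WT libraries and at 25.0, 23.1 and 22.2 CPM in the 3 H3K9M libraries. All H3WT values were far above all H3K9M values, and the spread lay almost wholly in H3WT, where replicate 1 was highest. The log2 fold change was -2.34 ± 0.23 (SE), with an edgeR adjusted p of 0.00420. The call held without each library in turn (edgeR adjusted p up to 0.0264), and the log2 fold change without H3WT replicate 1 was -1.98. With only replicates 1 and 3 of both groups it was -2.49 and edgeR's call was lost (adjusted p = 0.118), while DESeq2 called Sfrp2 lower there. The exons of Sfrp2 overlap an antisense gene model, Gm26771, over 16.1% of their length, and this model has no row of its own in the count table.

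A further 4 antagonists were lower in H3K9M at an unadjusted p under 0.05 in edgeR, without passing over all genes. None of these 4 overlapped between the groups, where 11.3% of all genes were lower without overlap. Sfrp1, a close relative of Sfrp2, had the highest mean level per length among the antagonists. It stood at 61.6 ± 16.8 CPM per kb of exon (SD, n = 3) in H3WT and 33.3 ± 3.12 in H3K9M. In H3WT its libraries overlapped those of Sfrp2 (55.1 ± 21.1), so the order of the pair was not resolved there. The Sfrp1 libraries stood at 311, 312 and 185 CPM in H3WT and 146, 159 and 131 CPM in H3K9M, so that H3WT replicate 3 was the nearest to the H3K9M range. The log2 fold change was -0.89 ± 0.19 with an edgeR adjusted p of 0.0561, and without H3WT replicate 3 it was -1.10 and the adjusted p was 0.00262. Sfrp1 passed in no other fit without 1 library (edgeR adjusted p up to 0.208).

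Frzb, another Frizzled-related Wnt-binding protein, stood at 69.1, 70.7 and 41.6 CPM in H3WT and 23.6, 36.7 and 36.5 CPM in H3K9M, giving a log2 fold change of -0.91 ± 0.23 at an edgeR adjusted p of 0.0923. Here too H3WT replicate 3 was the lowest of its group, and without it the adjusted p was 0.0219. In the other fits without 1 library Frzb did not pass (edgeR adjusted p up to 0.295). Wif1, which binds Wnt proteins through its WIF domain, was at 9.23, 9.28 and 9.21 CPM in H3WT and 3.42, 4.62 and 6.09 CPM in H3K9M, giving a log2 fold change of -0.97 ± 0.21 at an edgeR adjusted p of 0.0642. Its H3WT libraries were nearly equal, and the spread lay in H3K9M. Apcdd1, a membrane-bound Wnt inhibitor, was at 25.9, 27.5 and 24.7 CPM in H3WT and 14.9, 18.1 and 20.4 CPM in H3K9M, giving a log2 fold change of -0.55 ± 0.13 at an edgeR adjusted p of 0.0754.

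Dkk3, a Dickkopf family member whose effect on Wnt signalling is less settled than that of its relatives, was the 1 member with a positive fold change at an unadjusted p under 0.05. It stood at 36.1, 21.0 and 20.0 CPM in H3WT and 39.8, 41.4 and 31.9 CPM in H3K9M. The groups overlapped through H3WT replicate 1, which was above H3K9M replicate 3. The log2 fold change was 0.55 ± 0.22 with an edgeR adjusted p of 0.259, and without H3WT replicate 1 it was 0.88 with an adjusted p of 0.0223. Dkk3 passed in no other fit without 1 library (edgeR adjusted p up to 0.553). The low antagonists Sfrp4 and Dkk2 lay between 0.588 and 5.22 CPM in every library and overlapped between groups.

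**Figure D2:**
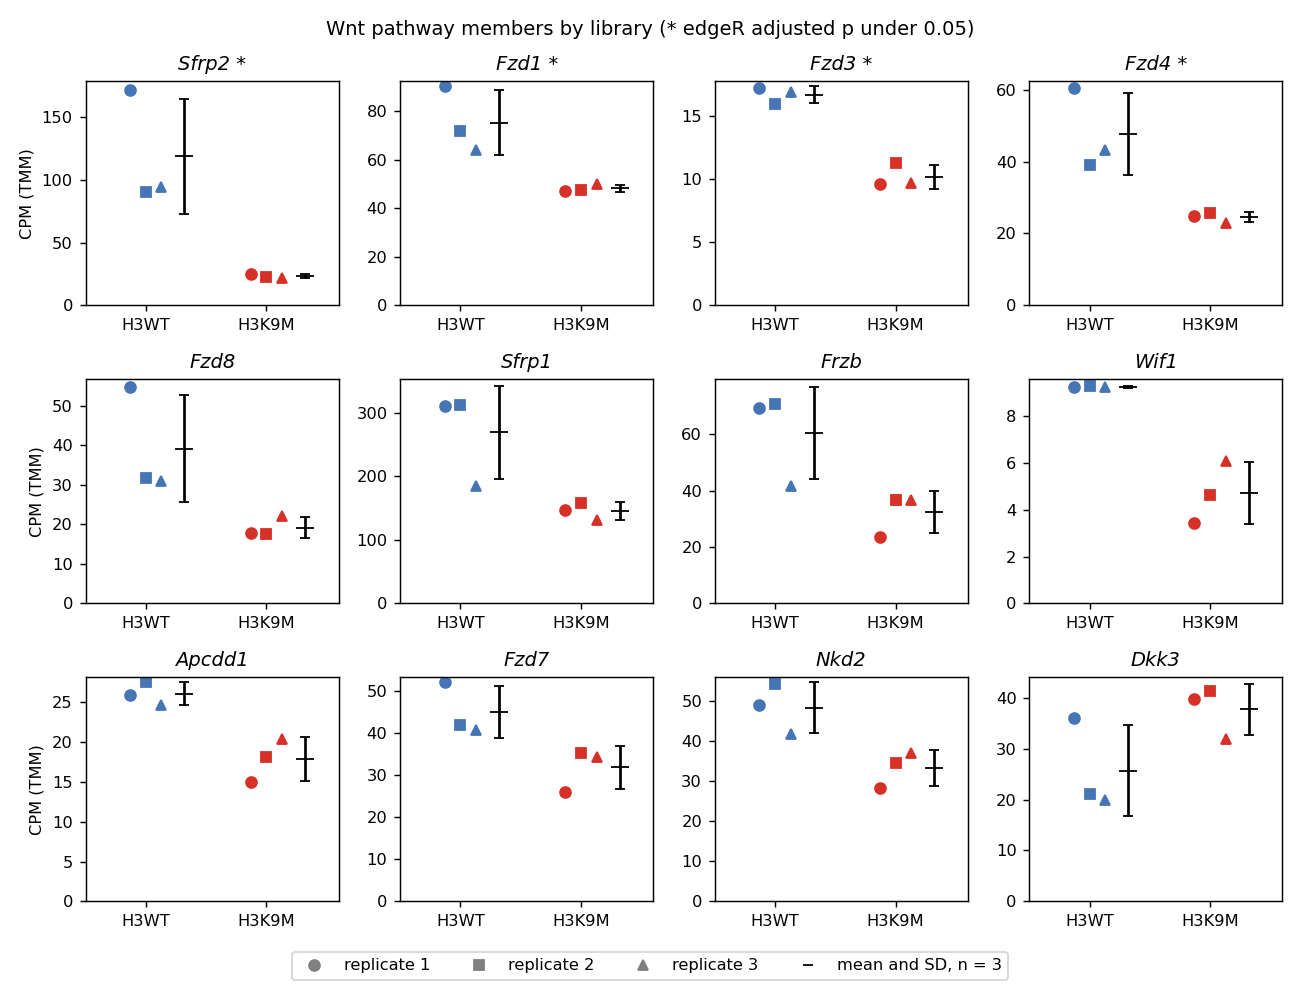
CPM (y axis, from 0) of 12 members in each of the 6 libraries, with symbols for replicates 1 to 3 and the mean and SD of each group in black (n = 3), and an asterisk at the 4 members past the adjusted threshold. The H3WT and H3K9M points are apart in every panel except that of Dkk3. The 12 were picked among members with an unadjusted p under 0.05 in edgeR, so this separation follows in part from the choice. Over all 41 tested members the groups overlapped in 23.

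Of the 9 Frizzled genes, which encode the membrane receptors that bind Wnt proteins, 3 fell, none rose and 7 had negative fold changes. The median was -0.50 on the log2 scale, and in 5 of the 9 every H3K9M library was below every H3WT library. Over all tested genes 1.05% were called lower and 11.3% were lower without overlap. Fzd4, a receptor known for its role in vessel growth in the retina, lies on chromosome 7 at 89404355 to 89413134. It stood at 60.5, 39.1 and 43.2 CPM in H3WT and 25.0, 25.8 and 23.0 CPM in H3K9M. The H3K9M libraries were tightly grouped and all lower, with H3WT replicate 1 the highest (log2 fold change -0.95 ± 0.16, edgeR adjusted p = 0.0268).

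Fzd3, known for its part in axon guidance and planar cell polarity, lies on chromosome 14 at 65192449 to 65262463. Its levels were 17.3, 16.0 and 16.9 CPM in H3WT and 9.60, 11.3 and 9.69 CPM in H3K9M. Every H3WT library was above every H3K9M library, with a gap wider than either group's range. The log2 fold change was -0.71 ± 0.12 with an edgeR adjusted p of 0.0266. Fzd1, on chromosome 5 at 4753839 to 4758035, was at 90.3, 71.8 and 64.1 CPM in H3WT and 47.1, 47.8 and 49.96 CPM in H3K9M, giving a log2 fold change of -0.64 ± 0.12 at an edgeR adjusted p of 0.0410.

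Each of these 3 calls was lost in some fits with fewer libraries. Of the 6 fits without 1 library, edgeR kept the call of Fzd4 in 3, of Fzd1 in 2 and of Fzd3 in 2. With only replicates 1 and 3 of both groups the edgeR adjusted p was 0.234 for Fzd4, 0.256 for Fzd3 and 0.402 for Fzd1. On those libraries DESeq2 called Fzd4 and Fzd3 lower, but not Fzd1. Fzd4 lost its call without each of the 3 H3K9M libraries (edgeR adjusted p = 0.0787, 0.0964 and 0.0994 when replicates 1, 2 and 3 were left out in turn). Fzd1 lost it without replicate 2 of H3WT (0.130), without replicate 1, 2 or 3 of H3K9M (0.114, 0.126 and 0.112) and with limma-voom (0.0503). Fzd3 lost it without replicate 1 or 2 of H3WT (0.0638 and 0.109) and without replicate 1 or 3 of H3K9M (0.0787 and 0.0929). The fold changes of all 3 stayed negative in each fit that left out 1 library, between -0.50 and -1.08 on the log2 scale.

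Fzd8 and Fzd7 were also lower in every H3K9M library without passing. Fzd8 was at 54.8, 31.7 and 30.9 CPM in H3WT and 17.8, 17.5 and 22.2 CPM in H3K9M, with H3WT replicate 1 well above the others. Its log2 fold change was -1.03 ± 0.22 (edgeR adjusted p = 0.0598), and without H3WT replicate 1 it was -0.71 with an adjusted p of 0.0442. Of the 6 fits without 1 library, 2 called Fzd8, and the edgeR adjusted p ran up to 0.188. Fzd7 was at 52.1, 42.1 and 40.8 CPM in H3WT and 26.0, 35.4 and 34.4 CPM in H3K9M, giving a log2 fold change of -0.50 ± 0.14 at an edgeR adjusted p of 0.128.

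Fzd2, the most abundant Frizzled gene per length, stood at 53.7 ± 5.02 CPM per kb in H3WT and 52.0 ± 7.13 in H3K9M (SD, n = 3), with a log2 fold change of -0.05 ± 0.12, which did not pass (edgeR adjusted p = 0.889). Fzd5 and Fzd6 lay between 17.7 and 31.0 CPM and Fzd9 between 1.71 and 3.50 CPM, all with overlapping groups. On the scale of CPM per kb the Frizzled genes ranked Fzd2, Fzd1, Fzd7, Fzd4, Fzd8, Fzd6, Fzd5, Fzd3 and Fzd9 by their H3WT means. Neighbours in this order whose mean ± SD ranges overlapped were Fzd7 (9.93 ± 1.36 CPM per kb), Fzd4 (7.08 ± 1.69), Fzd8 (6.54 ± 2.28) and Fzd6 (5.81 ± 0.559), and likewise Fzd3 (1.30 ± 0.0523) and Fzd9 (1.09 ± 0.398).

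**Figure D3:**
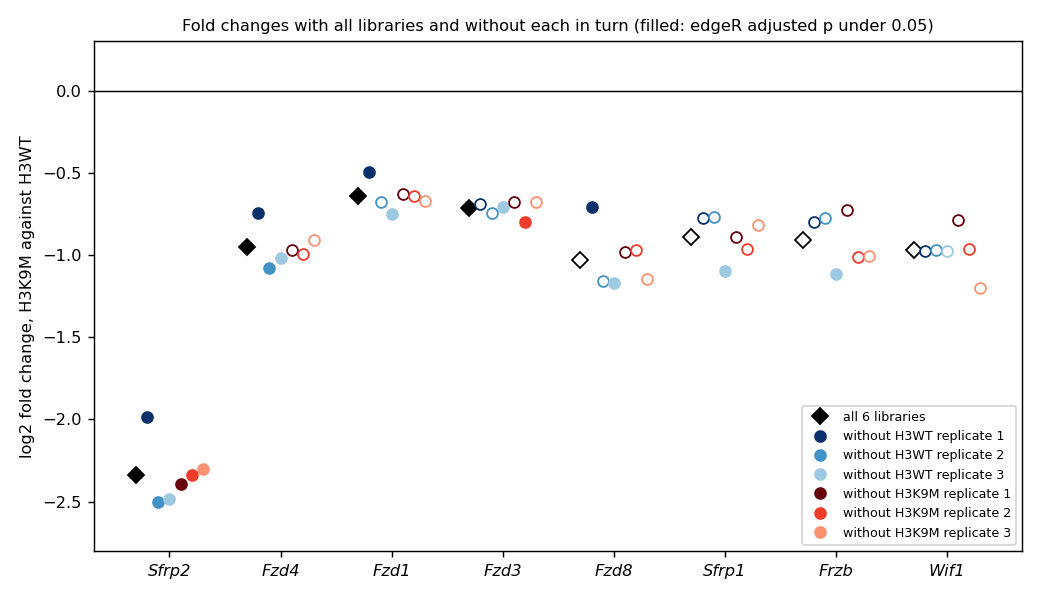
Log2 fold change (y axis, H3K9M against H3WT) of 8 members with all 6 libraries (diamonds) and without each library in turn (circles), filled where the edgeR adjusted p was under 0.05. The 8 were picked among members lower at an unadjusted p under 0.05 in edgeR. Sfrp2 is filled in all fits drawn, the 3 Frizzled calls are open in several, and every value is below 0.

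None of the 5 co-receptor and alternative receptor genes passed. At an unadjusted p under 0.05 edgeR gave 0 of them in either direction, and the groups overlapped in all 5. Lrp5 and Lrp6, the co-receptors of the beta-catenin branch, were at 162 ± 11.8 and 152 ± 16.3 CPM in H3WT and 155 ± 7.55 and 142 ± 1.18 CPM in H3K9M (SD, n = 3). Ryk, a Wnt-binding receptor with an inactive kinase domain and the most abundant of the 5 per length, had a log2 fold change of 0.18 ± 0.08, which did not pass (edgeR adjusted p = 0.321). The receptor kinases Ror1 and Ror2, which respond to Wnt5a, lay between 17.1 and 30.6 CPM in all libraries.

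The ligand genes were low, with no library above 13.4 CPM for any of them, and none of the 6 tested passed. The median log2 fold change was -0.063, with 3 positive and 3 negative values. Wnt11, a ligand known for beta-catenin-independent signals in the early heart, was at 4.54, 5.44 and 7.98 CPM in H3WT and 4.13, 2.85 and 3.44 CPM in H3K9M, giving a log2 fold change of -0.79 ± 0.26 at an edgeR adjusted p of 0.178. All H3WT values were higher, with a gap of under 1 CPM between the groups. Wnt5b, the most abundant ligand per length, had mean levels of 8.43 ± 1.81 CPM (H3WT) and 10.8 ± 2.25 CPM (H3K9M; SD, n = 3), a log2 fold change of 0.36 ± 0.21 that did not pass (edgeR adjusted p = 0.439). Wnt4 was lower in every H3K9M library and Wnt9a higher in every one, without passing. Wnt5a lay between 2.95 and 7.04 CPM, and Wnt2b was near the floor, at 0 to 47 reads in a library.

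R-spondins strengthen Wnt signals by binding LGR receptors and withdrawing the ubiquitin ligases ZNRF3 and RNF43 from the Frizzled receptors. None of the 4 tested genes of this axis passed. Rspo2 stood at 2.51, 1.80 and 1.19 CPM in H3WT and 0.632, 0.625 and 0.140 CPM in H3K9M. These levels rested on 81 to 141 reads in H3WT and 8 to 38 in H3K9M, and the groups did not overlap (log2 fold change -1.97 ± 0.58, edgeR adjusted p = 0.138). Rspo3 lay between 0.698 and 1.67 CPM and overlapped between groups. Lgr4, the receptor and the most abundant of the 4 per length, was at 72.4 ± 9.10 and 66.4 ± 8.72 CPM (-0.13 ± 0.12, edgeR adjusted p = 0.669), and Znrf3 at 14.0 ± 1.15 and 13.8 ± 1.22 CPM (SD, n = 3).

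None of the 9 intracellular and feedback genes passed, although 8 had negative fold changes and the median was -0.28. Ctnnb1, which encodes beta-catenin, was the most abundant of all 41 members per length, at 109 ± 0.402 CPM per kb in H3WT and 101 ± 2.20 in H3K9M (SD, n = 3). Its libraries stood at 567, 564 and 568 CPM in H3WT and 534, 523 and 511 CPM in H3K9M. The groups did not overlap, with a log2 fold change of -0.12 ± 0.07 that did not pass (edgeR adjusted p = 0.467). The exons of Ctnnb1 share 15.1% of their length with other gene models, Ulk4 on the opposite strand among them, so its count may hold some of their reads.

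Nkd1 and Nkd2 encode Naked cuticle proteins, which bind Dishevelled and dampen the signal. Nkd2 was at 49.0, 54.2 and 41.7 CPM in H3WT and 28.3, 34.6 and 37.0 CPM in H3K9M, giving a log2 fold change of -0.54 ± 0.13 at an edgeR adjusted p of 0.0817. Nkd1 was at 16.8, 14.6 and 8.76 CPM in H3WT and 4.97, 9.76 and 9.07 CPM in H3K9M, giving a log2 fold change of -0.75 ± 0.30 at an edgeR adjusted p of 0.258, where H3WT replicate 3 lay inside the H3K9M range. In Nkd2 all H3WT libraries were higher.

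The LEF/TCF factors differed widely in level. Tcf7l1, mostly a repressor, was the most abundant at 21.5 ± 2.65 CPM per kb in H3WT, ahead of Tcf7l2 at 2.89 ± 0.465, Tcf7 at 1.17 ± 0.247 and Lef1 at 0.133 ± 0.0870 (SD, n = 3). Tcf7 stood at 2.69, 2.70 and 3.82 CPM in H3WT and 1.42, 1.89 and 1.06 CPM in H3K9M, with all H3WT values higher (-1.07 ± 0.31, edgeR adjusted p = 0.131). Lef1 overlapped between the groups at 17 to 132 reads in a library. Axin2, a feedback gene widely used to read out beta-catenin activity, was at 20 to 69 reads in a library, with 0.428, 0.504 and 1.01 CPM in H3WT and 0.615, 0.642 and 0.349 CPM in H3K9M. The groups overlapped, and no difference was detectable with these few reads. Its relative Axin1, a scaffold of the destruction complex, had mean levels of 53.7 ± 2.17 CPM (H3WT) and 58.7 ± 4.45 CPM (H3K9M; SD, n = 3), with every H3K9M library above every H3WT library and no call.

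**Figure D4:**
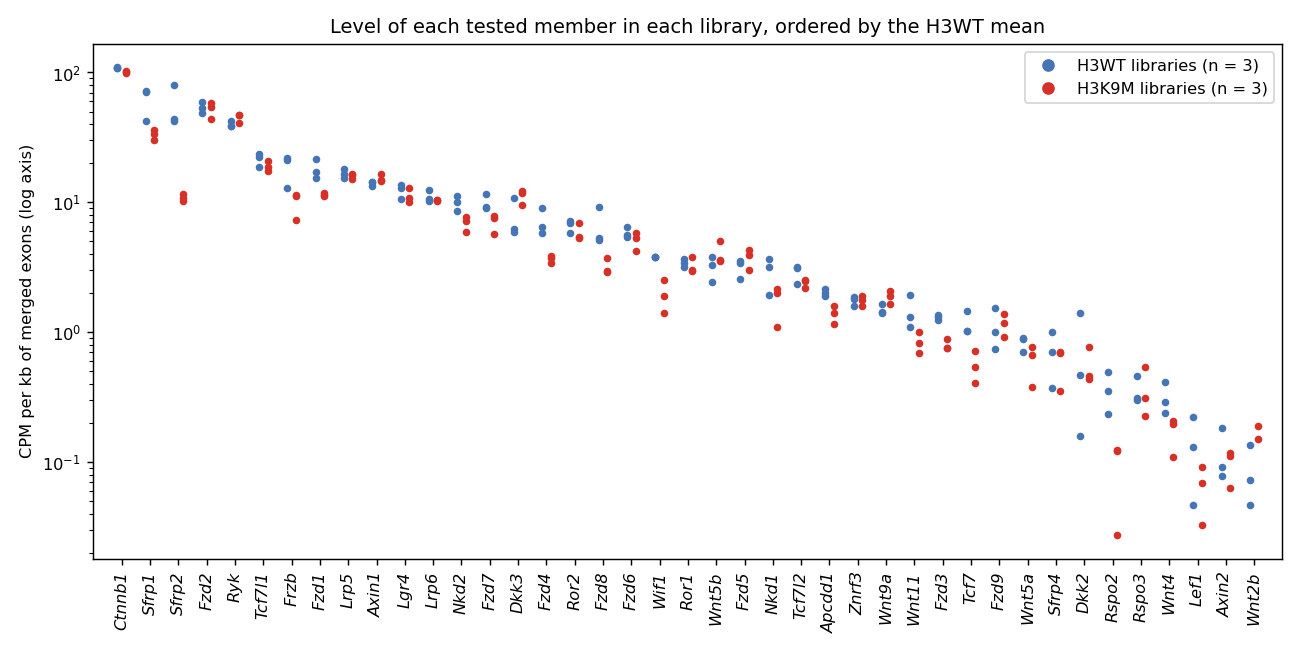
CPM per kb of merged exons (y axis, log scale) of the 41 tested members in each library (blue H3WT, red H3K9M, 3 each), ordered by the H3WT mean. Levels run from Ctnnb1 at the left to Axin2 and Wnt2b at the right, and Sfrp2 shows the widest gap between the groups among the abundant members; the library of Wnt2b at 0 is not drawn.

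Between the groups, the order of the members by CPM per kb changed most visibly for Sfrp2. It was the third of 41 in H3WT at 55.1 ± 21.1 CPM per kb, an SD that spans the means of Sfrp1 and Fzd2, and ranked 11 in H3K9M at 10.9 ± 0.651 (SD, n = 3). In H3K9M the highest levels were those of Ctnnb1, Fzd2, Ryk and Sfrp1.

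The rest of the pathway was described through 102 other genes, of which 89 were tested. Of these 89, 2 fell and none rose by edgeR, 59 had negative fold changes, and the median was -0.11. At an unadjusted p under 0.05 edgeR gave 17 lower and 5 higher, where 8.61% and 7.78% of all genes were lower and higher. DESeq2 at its adjusted threshold called 7 lower and 2 higher, against 3.69% and 3.22% of all genes, so the counts of higher genes were at or below the background. Dact3, a Dishevelled-binding inhibitor, was at 155, 145 and 109 CPM in H3WT and 53.8, 82.4 and 79.5 CPM in H3K9M, giving a log2 fold change of -0.92 ± 0.18 at an edgeR adjusted p of 0.0439. Daam2, a formin that links Dishevelled to the cytoskeleton, was at 33.1, 27.0 and 31.5 CPM in H3WT and 18.3, 21.2 and 18.8 CPM in H3K9M, giving a log2 fold change of -0.65 ± 0.11 at an edgeR adjusted p of 0.0313. The groups were apart in both genes, and both calls were lost when any 1 library other than H3WT replicate 3 was left out (edgeR adjusted p up to 0.171 for Dact3 and 0.107 for Daam2).

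By list, 1 of 33 genes of Wnt secretion and the beta-catenin branch fell (Dact3), with a median of -0.086. Over all tested genes edgeR called 1.05% lower. Dvl1, a Dishevelled gene, was higher in all H3K9M libraries (0.33 ± 0.07, edgeR adjusted p = 0.0711). Of 15 planar polarity genes 1 fell (Daam2), with a median of -0.030, and Vangl2, a core polarity gene, had a log2 fold change of -0.37, which did not pass (edgeR adjusted p = 0.251). None of 18 extracellular modulators passed, with a median of -0.30 and 14 negative values. Igfbp4, a binding protein that also inhibits Wnt signals, and Shisa3, an antagonist that acts on Frizzled maturation, had log2 fold changes of -1.09 ± 0.33 and -2.19 ± 0.70 (edgeR adjusted p = 0.145 and 0.172).

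Of 23 tested Wnt target genes, none passed by edgeR. The median was -0.096, 10 values were positive and 13 negative, and at an unadjusted p under 0.05 edgeR gave 1 higher and 4 lower. Over all tested genes 7.78% were higher and 8.61% lower at that p. Bambi, a pseudoreceptor of the TGF-beta family, was higher in all H3K9M libraries without passing (24.4, 33.1 and 42.2 CPM against 86.0, 55.2 and 53.4 CPM; 0.96 ± 0.23, edgeR adjusted p = 0.0792). Lbh, a transcription cofactor induced by Wnt, was lower in all of them (-0.46 ± 0.12, edgeR adjusted p = 0.0890).

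**Figure D5:**
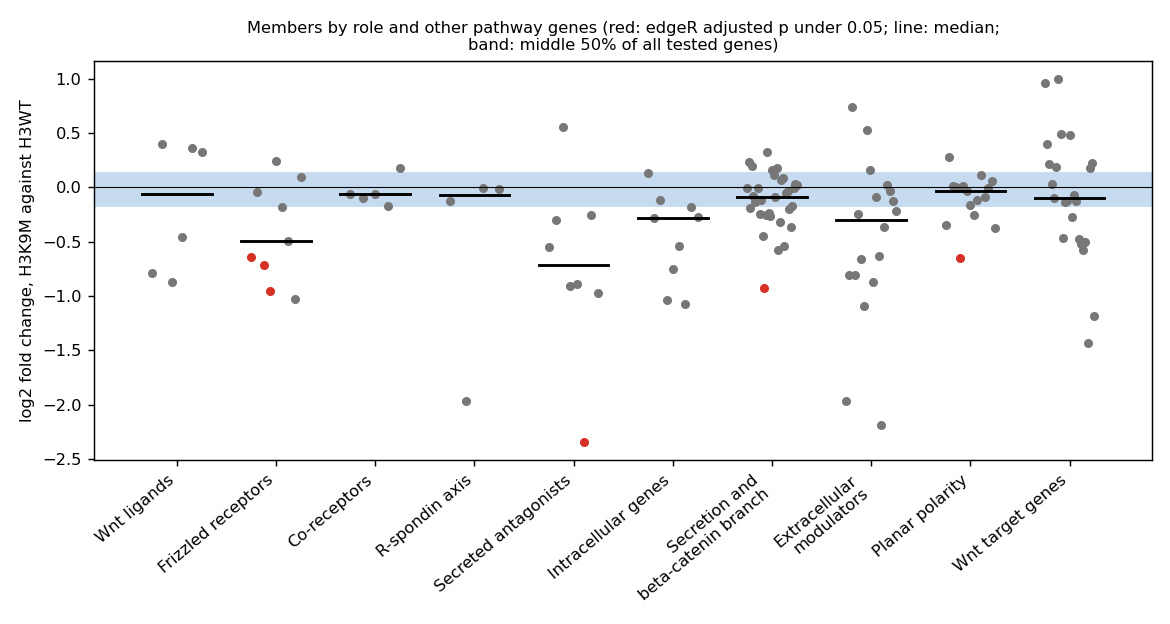
Log2 fold change (y axis, H3K9M against H3WT) of each tested gene in the 6 role classes of members and the 4 lists of other pathway genes, with the median of each list as a line and the middle 50% of all tested genes as a band. The medians of the Frizzled genes (-0.50) and secreted antagonists (-0.72) lie below the band. The next lowest are those of the extracellular modulators (-0.30) and intracellular genes (-0.28), and the calls in red are all below 0.

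Some markers of other cell types were also lower in H3K9M. Of 11 endothelial markers 10 had negative fold changes and 2 fell, Npr3 and Nos3, with a median of -0.61. At an unadjusted p under 0.05 edgeR gave 8 of the 11 lower and 0 higher, and in 5 every H3K9M library was below every H3WT library. Over all tested genes 8.61% were lower and 7.78% higher at that p, and 11.3% were lower without overlap. At the adjusted threshold edgeR called 1.05% of all tested genes lower and 0.935% higher. Of 11 fibroblast markers 7 were negative and none passed by edgeR (2 lower and 1 higher at an unadjusted p under 0.05), with a median of -0.55. All 10 macrophage markers were negative and none passed. Of 10 epicardial markers 6 were positive and 4 negative, and 1 rose, Krt8. At an unadjusted p under 0.05 edgeR gave 4 epicardial markers higher and 2 lower. Of 10 smooth muscle and mural markers 1 fell, Smtn, and none of the 7 tested neural and Schwann cell markers passed. No defining marker of cardiomyocytes, fibroblasts, endothelium or macrophages was at 0 in any library, whereas the epicardial marker Upk1b was at 0 in 1 H3WT library. H3WT replicate 1, the library with the highest macrophage sum, was the highest of its group for 7 of the 11 fibroblast markers and the lowest for 3. It was the highest of its group for 7 of the 9 Frizzled genes and the lowest for 2, and over all 41 members it was the highest for 16 and the lowest for 13. The part of these cell types in the values of Sfrp2 and the Frizzled genes was not tested. Cardiomyocyte markers had a median of 0.054 and none of the 12 passed.

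The authors' deposited table listed 42 members, of which 9 were lower and none higher at an adjusted p under 0.05. Of all genes with an adjusted p in the authors' deposited table, 2.3% were lower and 1.8% higher. The 9 were Fzd1, Fzd4, Fzd8, Sfrp1, Sfrp2, Frzb, Wif1, Apcdd1 and Nkd2. In the authors' deposited table Sfrp2 had a log2 fold change of -2.39 and Fzd4 of -0.90. Fzd3, which fell in the edgeR fit, stood at -0.42 on the log2 scale with an adjusted p of 0.310 in the authors' deposited table. Of the 41 members in both, 38 had the same sign. The mean normalised counts of the authors' deposited table were 0.252 times those of the count table scaled by library size (median over genes), and 279 of its genes have no row in the count table. How the authors' deposited table was made from counts is not given in the sources used here.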

How the data were processed

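The authors deposited raw read counts per gene (whole numbers, 6 columns, each matched by name to 1 sample), and per the submitters' processing notes HISAT2, featureCounts, DESeq2 and the build mm10 were used, with versions and strand setting not given in the sources used here. Their own comparison, also deposited by the authors, gives a mean normalised count (signal), log2 fold changes and their standard errors, p-values, and a score (the Wald statistic) not used here.

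Genes were filtered with filterByExpr (minimum count 10, total 15) and compared with edgeR 4.0.16 in R 4.3.3 (TMM, quasi-likelihood, group as the only term) over the whole table. The standard error is the log2 fold change over the square root of F. CPM per kb uses merged exon lengths of GENCODE M21 (GRCm38, also called mm10). With 3 libraries against 3, an exact permutation test cannot go below p = 0.1. Alternatives were DESeq2 1.42.0, limma-voom (limma 3.58.1), RLE factors, other filters, a replicate block and leaving out libraries; the fit with only replicates 1 and 3 was added after seeing the data. The scripts were tested on simulated data. Replicates differed by a chi-square of 27.0 to 121 per gene, far above sampling noise, and each counted as 1 sample.

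The members and lists were chosen with earlier results of these data known. Fold changes with tests are given for members at an adjusted or unadjusted p under 0.05 and for the most abundant member per length of each class, and for other pathway genes past the adjusted threshold or among the 2 smallest p of a list. Sequences were read from RefSeq promoter entries.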

Additional observations from a re-analysis of the deposited data

How the results depend on the processing

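The counts of calls depended on the tool and the libraries, and the directions mostly did not. Members lower in H3K9M numbered 4, and 13 with DESeq2, 10 at an adjusted p under 0.1, 1 with the replicate block and 1 to 8 without 1 library. Members higher numbered 0, and 1 with only replicates 2 and 3 of both groups, which was Dkk3, and 0 to 1 without 1 library. Of the 4 calls, DESeq2, RLE factors and both other filters kept all 4, limma-voom kept 3, and the fits without H3K9M replicate 1 or without H3K9M replicate 3 kept 1, Sfrp2. Over all tested genes, 138 were higher and 155 lower, with DESeq2 475 and 544, with the replicate block 31 and 27, and without 1 library 30 to 149 and 30 to 223. Other pathway genes lower numbered 2, with DESeq2 7, with the replicate block 0, with only replicates 2 and 3 of both groups 1 and without 1 library 0 to 2. Those higher numbered 0, with DESeq2 2 and without 1 library 0 to 2. With only replicates 1 and 3 of both groups, a setting chosen after seeing the data, edgeR gave 0 calls for members, for other pathway genes and over all tested genes, in either direction. At an unadjusted p under 0.05 it gave 772 genes lower and 606 higher, and DESeq2 called 191 lower and 155 higher; 32 of 41 members were negative. The replicate numbers were not taken to pair the samples, although the titles share an unexplained M number for replicates 1 and 3: the deviations of same-numbered libraries from their group means correlated at -0.157, 0.0346 and -0.0694, and the block used up degrees of freedom. Up to 5 of the 41 members changed sign when 1 library was left out. Of those named by the rule only Fzd2 did, whose log2 fold change ran from -0.13 to 0.060 without 1 library (0.022 when it was H3WT replicate 1) and was 0.13 with only replicates 2 and 3. Levels of the 4 members that fell moved by less than 1 SD with RLE factors. The filter at 5 CPM left 30 of 41 members, so low members have no value there. For members with few reads, such as Axin2, Lef1, Rspo3 and Wnt2b, counting depth limits what could be seen.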
